A study of Sus scrofa with 16 samples.

Results

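Methylated regions of the heart were compared between Tibetan pigs and Yorkshire pigs that had both been raised at low elevation. The members of the comparison were the 4 Tibetan lowland animals (TL) and the 4 Yorkshire lowland animals (YL), 8 of the 16 animals of the series, and the peaks that the TL and YL lists hold on chromosomes 1 to 18. From the TL list these were 240851 of 259066 peaks and from the YL list 305654 of 332078, which is 546505 of the 1159046 peaks deposited for the 4 groups. All animals were castrated boars of 6 months whose hearts were sampled at slaughter, and pigs at one elevation were fed alike. The YL animals were Yorkshire pigs at their home elevation, whereas the TL animals belonged to a herd of Tibetan origin that was new to the lowland, their own generation having been conceived and raised there. Breed was therefore joined with the history of the herd, and these cannot be told apart within the lowland. The Tibetan highland (TH) and Yorkshire highland (YH) groups, also of 4 animals each, were not used to choose the windows that differed between TL and YL. They did enter the choice of a stretch of chromosome 8 described near the end.

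In mammals, DNA methylation sits mostly on cytosines that precede a guanine, and it is copied to the daughter strand when a cell divides. At promoters it usually goes with silent genes, while gene bodies, repeats and most intergenic sequence are methylated in nearly every tissue. In MeDIP-seq, an antibody against methylated cytosine pulls down sheared genomic DNA, and a peak marks a place where the sequenced tags pile up over the surrounding level. A peak therefore depends on the methylation of a region, on how many CpG dinucleotides and copies of it the genome carries, and on how deeply the library was sequenced. Heart tissue holds muscle cells, fibroblasts, vessel cells and blood, and the peaks belong to their mixture.

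For every peak, the lists hold where it lies, how long it is, how many tags it holds and its fold enrichment, which is the ratio of its tags to the level that the peak caller expected there. The animal a peak came from is not given. At most 4 peaks of a list lay over any base that was counted, which is the number of animals in a group, and the lists were read as the joined peaks of 4 animals. Under this reading, the number of peaks over a place counts the animals in which that place had a peak. Windows of 500 bp were laid along each chromosome of Sscrofa10.2, and the TL and YL peaks over base 250 of each window were counted, which gave 0 to 4 per group.

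The YL libraries were the deeper ones. The number of uniquely mapped reads was between 12.8 and 16.5 M in the TL animals (14.0 ± 1.69 M, SD, n = 4, where M stands for 1000000 reads) and between 16.2 and 18.5 M in the YL animals (17.1 ± 1.01 M). The ranges overlapped, and the two-sided exact permutation test of the difference of 3.06 M reads gave p = 0.0857. The share of clean reads that mapped to 1 place was 54.3% ± 0.547 (SD, n = 4) in TL and 56.7% ± 0.237 in YL, with each YL animal above each TL animal (same exact permutation test, p = 0.0286, the smallest that 4 against 4 allow). Depth and mapping thus moved with breed, and their part in the counts of peaks below was not tested.

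In the list of the YL animals, peaks were more numerous, longer and richer in tags than in that of the TL animals. The TL peaks formed 127939 separate regions that covered 154 Mb, and the YL peaks formed 147298 regions over 201 Mb. The median peak was 941 bp long with 25 tags in TL and 1040 bp long with 30 tags in YL. Per M uniquely mapped reads of an average animal, the median peak had 1.78 tags in TL and 1.76 in YL. Per M reads summed over the 4 animals of a group, there were 4298 TL and 4476 YL peaks. The median fold enrichment had the opposite order, at 7.88 in TL and 7.49 in YL. The median tags and the number of peaks thus came close to each other once divided by the reads. Other measures were not divided by the reads. Of the windows with a peak of the list, 9.70% held 4 peaks in TL and 12.3% in YL.

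Most TL peaks lay on a YL peak. With an overlap of at least 1 bp, 80.4% of the TL peaks (95% Wilson confidence interval 80.3–80.6%) had a YL partner, and 72.4% of the YL peaks (72.2–72.6%) had a TL partner. These intervals cover counting error only, because each group has 1 list. The overlap rose with the number of tags in both lists. In TL it was 64.1% for peaks with 11 to 17 tags and 91.2% for those with 41 and more, and in YL it was 57.1% for peaks with 12 to 20 tags and 83.9% for those with 51 and more. The TL peaks without a YL partner had a median of 18 tags and 757 bp, against 27 tags and 998 bp for those with one. The YL peaks without a TL partner had 23 tags and 885 bp, against 33 tags and 1112 bp. The order of the overlap shares turned when the lists were cut to equal numbers by keeping the YL peaks with most tags, which left 73.2% of the TL and 77.1% of the YL peaks with a partner.

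At least 1 TL or YL peak was found over 492858 windows, of which 217702 (44.2%) had peaks of both breeds, 184827 (37.5%) of YL only and 90329 (18.3%) of TL only. More YL than TL peaks were found over 273152 windows (55.4%), more TL than YL peaks over 130437 (26.5%) and equal numbers over 89269 (18.1%). All 8 animals had a peak over 18234 windows (3.70%). At the other end stood the windows where all animals of a breed had a peak and none of the other did. There were 3317 such windows on the YL side (4 YL and 0 TL peaks), which is 0.673% of the windows with a peak, and 430 on the TL side (4 TL and 0 YL peaks), which is 0.0872%. The TL side thus held 11.5% of these windows.

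**Figure D1:**
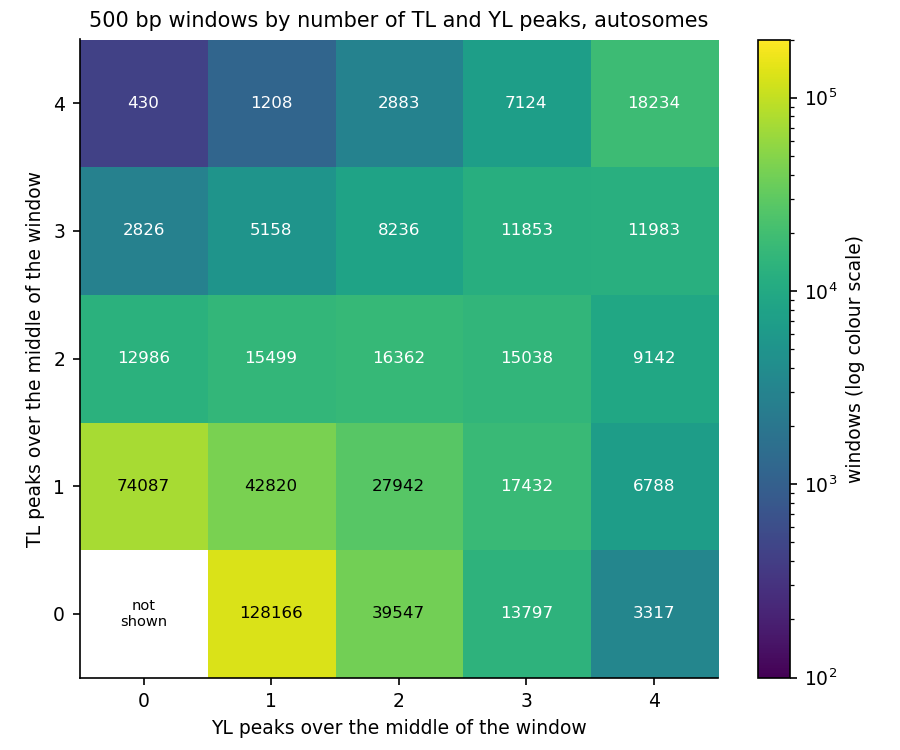
Number of 500 bp windows on the autosomes by the number of YL peaks (x axis, 0 to 4) and TL peaks (y axis, 0 to 4) over the middle of the window, on a log colour scale, with the count written in each square. The windows with 4 YL and 0 TL peaks (3317) outnumber those with 4 TL and 0 YL peaks (430), and windows with 4 of each (18234) outnumber both.

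The lean towards YL grew with the size of the difference. For windows with a single peak of 1 breed and none of the other, the YL side had 1.73 times as many windows as the TL side (128166 and 74087). The ratio was 3.05 for 2 peaks against 0, 4.88 for 3 against 0 (13797 and 2826) and 7.71 for 4 against 0. When the YL list was cut to the number of TL peaks by tags, these 4 ratios were 1.30, 2.0, 2.77 and 3.52, with 2453 windows on the YL side and 697 on the TL side at 4 against 0. When it was cut to the same number by fold enrichment instead, an alternative chosen after seeing the data, the lean turned, with 1705 windows on the YL side and 4447 on the TL side, so that the TL side held 72.3%. That cut takes only YL peaks of low fold enrichment and leaves the TL list whole. The cut by tags likewise took only YL peaks, those of few tags, and the fewest tags left were 19 in YL and 11 in TL. With a fold enrichment of at least 10 asked of both lists, which left 56951 TL and 54982 YL peaks, 352 windows remained and 101 of them (28.7%) were on the TL side, so the YL side was the larger again.

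A two-sided Fisher's exact test of 4 animals against 4 gives p = 0.0286 for 4 against 0, the smallest p this design allows, and only these 3747 windows had an unadjusted p below 0.05. After Benjamini-Hochberg adjustment over the 492858 windows, 0 windows passed and the smallest adjusted p was 1.00. No single window was thus called by the adjusted test. With no p below 0.0286 possible, a window could pass only if most tested windows were split 4 against 0. The outcome was thus in effect set by the design, and the windows of both sides are described below as sets.

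Differing windows were found on all 18 autosomes, and on each of them the YL side was the larger. The share of windows with a peak that fell on the YL side was lowest on chromosome 17 (0.396%, 65 windows) and highest on chromosome 11 (0.842%, 167 windows) and chromosome 8 (0.837%, 223 windows). On the TL side, chromosome 16 had the lowest share (0.0391%, 6 windows) and chromosome 11 the highest (0.171%, 34 windows). Chromosome 11 thus led on both sides, and it also had the highest share of windows with 4 TL and 4 YL peaks (4.69%). The TL part of the differing windows ranged from 6.38% on chromosome 16 to 16.9% on chromosome 11.

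**Figure D2:**
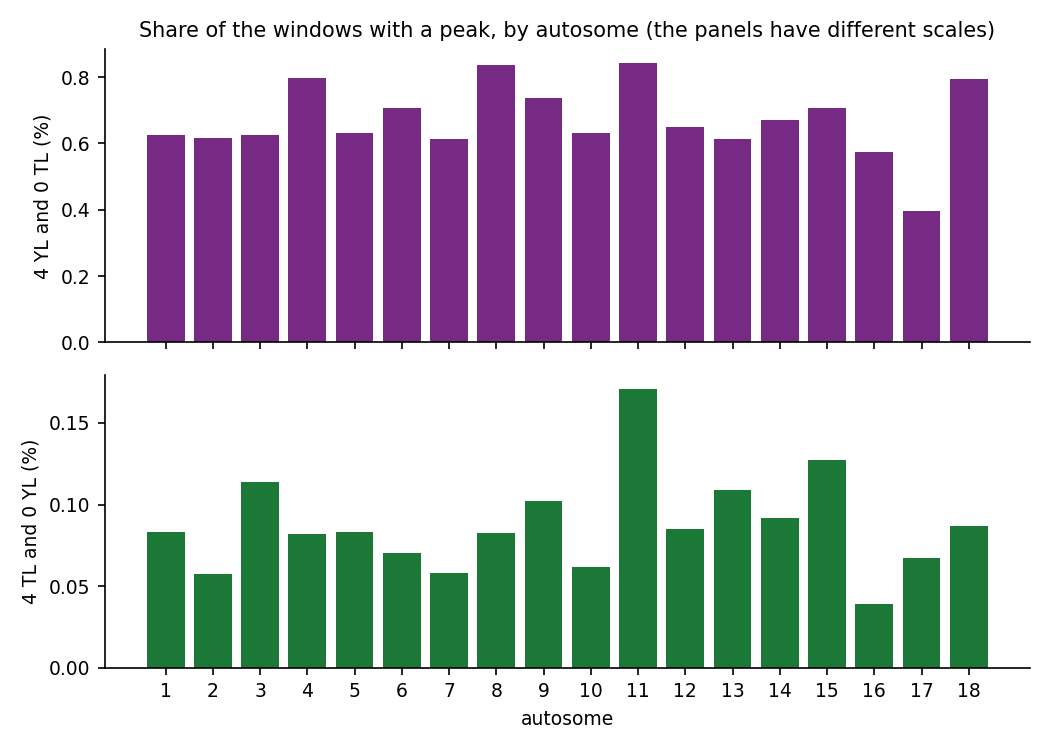
Windows with 4 YL and 0 TL peaks (upper panel) and with 4 TL and 0 YL peaks (lower panel) as a percentage of the windows with a peak on each autosome. The upper bars range from 0.396% to 0.842% and the lower ones from 0.0391% to 0.171%, and chromosome 11 has the highest bar in both panels.

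Windows with a peak were denser near the ends of the chromosomes, and more so those that all 8 animals shared. The outer 10% at each end of the autosomes held 29.2% of all windows with a peak and 38.1% of the windows with 4 TL and 4 YL peaks. The differing windows were nearer to the former, with 28.2% on the YL side and 29.3% on the TL side. Their surroundings were also close to those of an average window with a peak. Within 50 kb on each side, the median number of windows with a peak was 31 on the YL side, 33 on the TL side and 32 over all windows with a peak.

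The differing windows were short and scattered. The 3317 windows on the YL side formed 2186 regions of adjacent windows, of which 1353 (61.9%) were a single window and 5 (0.229%) were 6 windows or 3000 bp long. The 430 windows on the TL side formed 291 regions, of which 197 (67.7%) were a single window and 1 was 6 windows long. Windows with 4 TL and 4 YL peaks ran further, with a single window in 36.5% of 9271 regions and up to 10 windows (5000 bp) in a row.

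More than 50% of the differing windows had no peak of the other breed within 2000 bp, while about 20% were touched by one. On the YL side, a TL peak touched 22.0% of the windows without reaching their middle, and 54.7% had no TL peak within 2000 bp. On the TL side, a YL peak touched 17.9%, and 61.6% had none within 2000 bp. The median distance to the nearest peak of the other breed was 2695 bp on the YL side and 3201 bp on the TL side, and the largest distances were 168 kb and 48.2 kb. A peak of the other breed touched 17.7% of all windows with YL peaks only and 17.1% of all with TL peaks only, so the touched share on the YL side was above this level. Over all windows with YL peaks only, 55.5% had no TL peak within 2000 bp, and over all with TL peaks only, 55.4% had no YL peak, so the windows on the YL side were near this level and those on the TL side were above it.

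By tags and length, the peaks over the differing windows lay between the whole list and the windows that all 8 animals shared, and by fold enrichment they did not. The 8687 YL peaks over the YL side had a median of 34 tags, a fold enrichment of 7.36 and a length of 1192 bp. Over windows with 4 TL and 4 YL peaks, the 37034 YL peaks had 48 tags, a fold enrichment of 8.17 and 1367 bp, against 30 tags, 7.49 and 1040 bp for the whole list. The 1164 TL peaks over the TL side had a median of 26 tags, a fold enrichment of 8.06 and 1006 bp, and those over windows with 4 TL and 4 YL peaks had 38 tags, 8.05 and 1233 bp, against 25 tags, 7.88 and 941 bp for the list. The fold enrichment on the YL side was thus below that of the YL list, and on the TL side it was close to that of the shared windows. Over all windows with YL peaks only, the medians were 29 tags, 7.13 and 1071 bp. Over all with TL peaks only, they were 21 tags, 7.88 and 861 bp. By tags, fold enrichment and length, the peaks of each side were above these levels. The summit lay inside a differing window for 63.6% of the YL peaks and 71.3% of the TL peaks concerned, whereas 92.9% and 93.0% of the peaks over windows with 4 TL and 4 YL peaks had their summit in such a window. Over a further class, windows with 4 peaks of a breed and 1 to 3 of the other, the summit was inside for 78.6% of the YL and 77.0% of the TL peaks. Over all windows with peaks of 1 breed only it was inside for 64.2% of the YL and 71.9% of the TL peaks, so by summits the differing windows were close to one-breed windows in general.

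The highland animals, none of which entered the choice, were then counted at the same windows. At the 3317 windows on the YL side, there were 2.14 YH peaks and 1.37 TH peaks per window on average, with more YH peaks at 56.1% and more TH peaks at 18.1%. At the 430 windows on the TL side the order was the other way round, with 1.27 YH and 1.76 TH peaks, more YH peaks at 22.6% and more TH peaks at 51.4%. All 42699 windows with peaks in 4 of the 8 lowland animals, whatever the split, had 1.84 YH and 1.56 TH peaks, and those with 2 TL and 2 YL peaks had 1.77 and 1.59. The difference between YH and TH followed the split in the lowland step by step, being 0.771 peaks at 0 TL and 4 YL, 0.373 at 1 and 3, 0.182 at 2 and 2, -0.013 at 3 and 1 and -0.493 at 4 and 0. Neither set was simply present or absent by breed in the highland. On the YL side, 906 windows (27.3%) had no TH peak and 332 no YH peak, and on the TL side 65 windows (15.1%) had no TH peak and 127 (29.5%) no YH peak. With 1 list per group these shares have no error between animals, and no test was made.

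**Figure D3:**
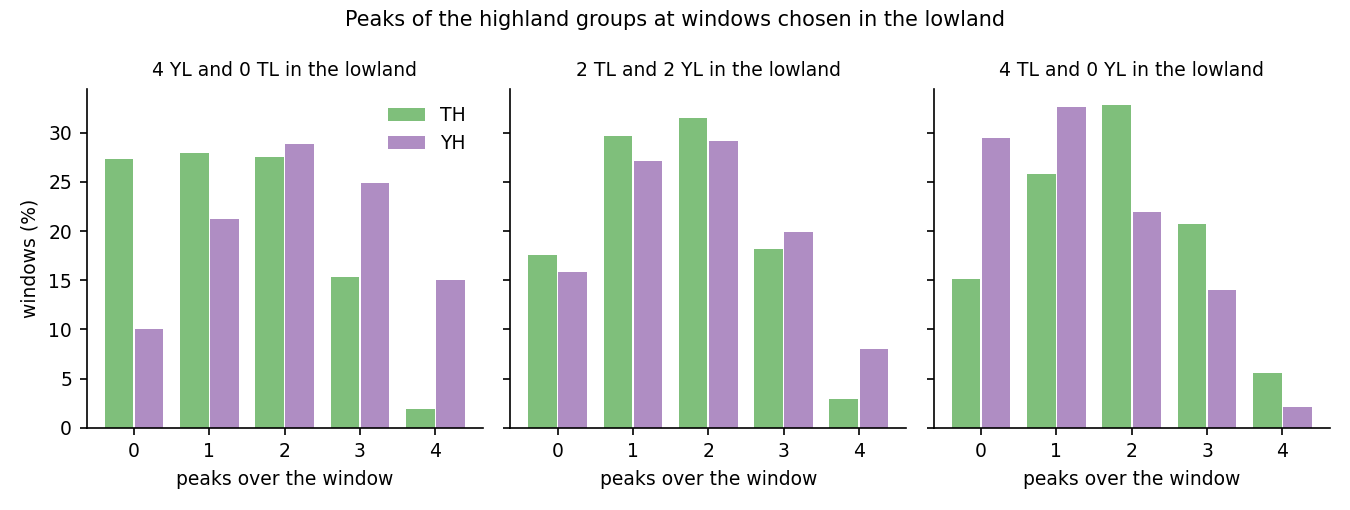
Percentage of windows (y axis) by the number of TH and YH peaks over them (x axis, 0 to 4), for windows with 4 YL and 0 TL peaks (left, 3317 windows), with 2 of each (middle, 16362) and with 4 TL and 0 YL peaks (right, 430). YH bars exceed TH bars at 2, 3 and 4 peaks on the left, by little at 2, and TH bars exceed YH bars at 2, 3 and 4 peaks on the right.

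The same split was met at both elevations by few of the windows. All 8 Yorkshire animals and none of the 8 Tibetan animals had a peak over 92 windows in 72 regions on 17 autosomes, which is 2.77% of the YL side, whereas 0.96% of all windows with peaks in 4 of the 8 lowland animals had 4 YH and 0 TH peaks. The longest was chr13:207969001-207970500, of 3 windows, where the YL peaks had 50 to 140 tags and the YH peaks 100 to 121. All 8 Tibetan animals and no Yorkshire animal had a peak over 3 windows, which were chr11:12331001-12331500, chr13:85597001-85597500 and chr13:191747501-191748000. This is 0.698% of the TL side, against 0.187% of all windows with peaks in 4 of the 8 lowland animals. Among windows on the YL side the reverse split in the highland (4 TH and 0 YH) was found at 2, and among windows on the TL side the split with 4 YH and 0 TH was found at 0.

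The longest regions on the YL side each spanned 3000 bp and were each covered by 4 long YL peaks with low fold enrichment. At chr12:5482501-5485500, the 4 YL peaks had 129, 164, 201 and 249 tags, lengths from 3356 to 3961 bp and fold enrichments from 3.28 to 4.37. The TL list had no peak in this region, and its nearest peaks began 743 bp to the right, where TL had 3 peaks of 45, 75 and 80 tags. In the highland, 3 to 4 YH peaks and 1 TH peak lay over each of its windows. The other 4 were chr2:149486001-149489000 (105 to 202 tags), chr11:81817501-81820500 (89 to 201), chr9:150284501-150287500 (119 to 184) and chr8:4328501-4331500 (89 to 107). At none of these did YH exceed TH at every window, with 2 TH and 1 to 2 YH peaks on chromosome 2, 3 and 2 on chromosome 11, 1 and 1 on chromosome 9, and 1 to 2 of both on chromosome 8. Of the 5 longest regions on the YL side, the highland groups thus differed in the direction of the lowland at the first.

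On the TL side the longest region was chr6:9518001-9521000, with 4 TL peaks of 105, 127, 134 and 173 tags, lengths from 3235 to 4101 bp and fold enrichments from 3.42 to 4.61. YL had no peak within 4174 bp, and in the highland there were 2 TH peaks and 0 YH peaks over each of its 6 windows. No Yorkshire animal of either elevation thus had a peak there. The next regions were chr10:69200001-69202500 (121 to 163 tags, with 3 TH and 3 YH peaks), chr4:142287501-142290000 (92 to 176 tags, with 2 to 3 TH and 0 to 1 YH peaks), chr13:34535501-34538000 (67 to 175 tags, with 2 to 3 TH and 1 to 2 YH peaks) and chr9:11651501-11653500 (129 to 234 tags, with 1 to 3 TH and 0 YH peaks over the counted bases). The last 2 were each touched by 3 YL and 3 YH peaks, and the one on chromosome 9 by 4 TH peaks. Over the counted bases, TH thus exceeded YH at every window of 3 of the 5 regions on the TL side, those on chromosomes 6, 4 and 9. In the last window on chromosome 9 this rests on the counted base, since 3 YH peaks of 53 to 116 tags began past it, at 11653327 to 11653461. Genes at these regions were not analysed here, because most of them lie on chromosomes outside the gene listing used below.

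**Figure D4:**
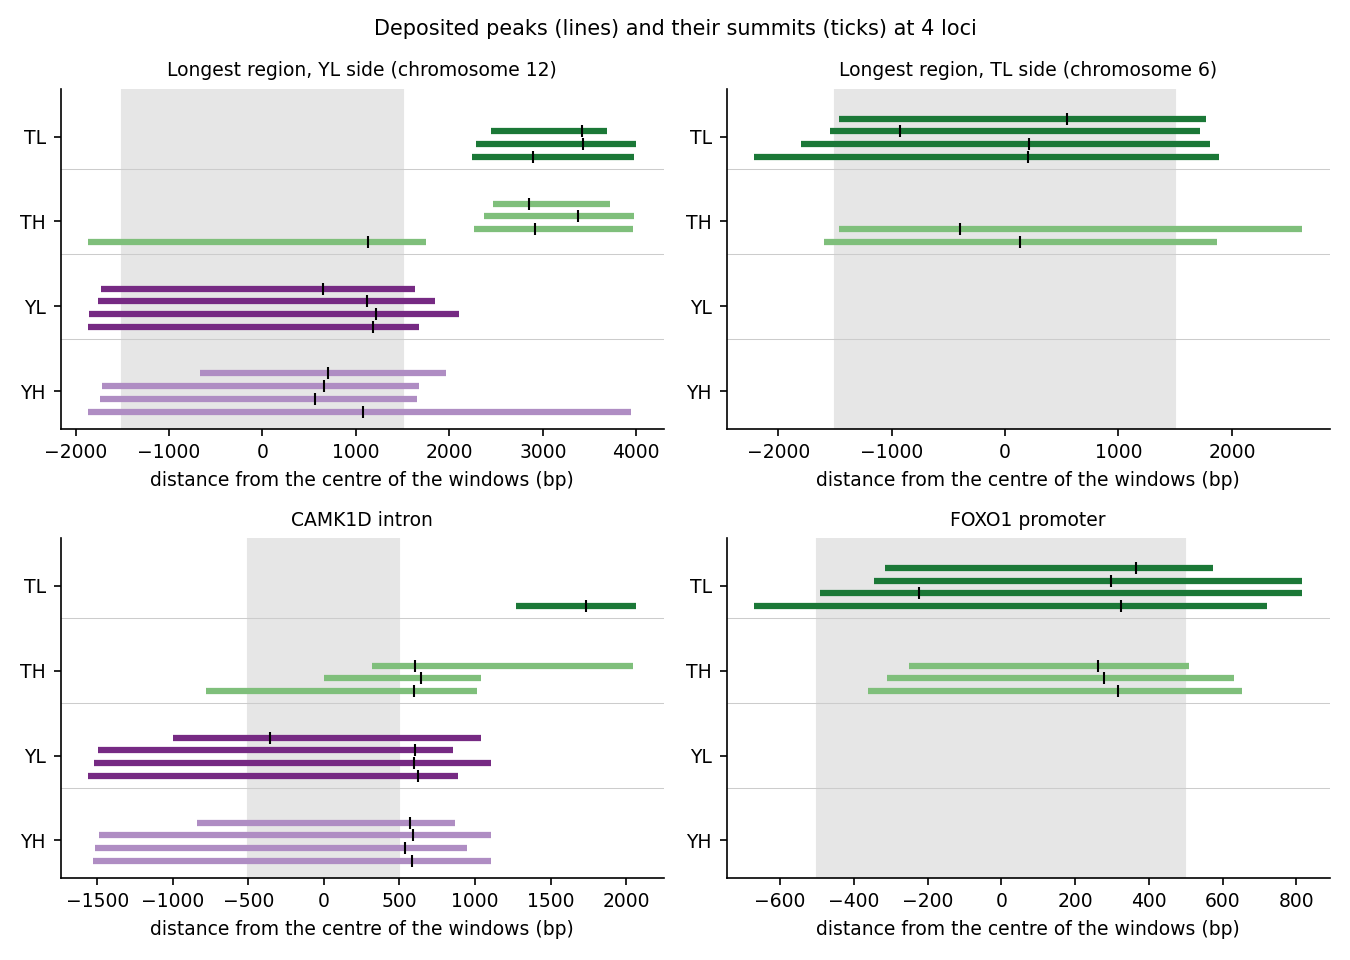
Deposited peaks (horizontal lines) and their summits (ticks) of the 4 lists by distance in bp from the centre of the differing windows (grey), at the longest region of each side and at the windows of CAMK1D and FOXO1. In the chromosome 12 and CAMK1D panels 4 YL and 4 YH peaks reach the grey area, together with 1 TH peak of 158 tags on chromosome 12 and 3 TH peaks at CAMK1D, and no TL peak does. In the chromosome 6 and FOXO1 panels the grey area is reached by 4 TL peaks and by 2 and 3 TH peaks, and by no Yorkshire peak.

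The windows of the YL side were thinly spread, with a median of 2 per Mb in the 1309 bins of 1 Mb that held any, and the bin with the most was 43000001 to 44000000 of chromosome 8. It held 22 windows on the YL side in 8 regions, which is 5.51% of its 399 windows with a peak, and the next bins were 5000001 to 6000000 of chromosome 12 (15 windows) and 4000001 to 5000000 of chromosome 8 (13 windows). On the TL side, 271 bins held a window, with a median of 1, and the leading bins were 2000001 to 3000000 of chromosome 11 (7 windows), 9000001 to 10000000 of chromosome 6 (6) and 69000001 to 70000000 of chromosome 10 (6).

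The 22 windows on chromosome 8 lay in a stretch of 600 kb (chr8:43300001-43900000). Its limits are those of the longest series of 100 kb bins with a Yorkshire count of at least 1.5 times the Tibetan count at both elevations, a rule chosen after the values were seen, so its counts are a description. Within it the YL list had 160 peaks and the TL list 73, and the mean number of peaks per window was 0.510 in YL and 0.130 in TL. In the 1000 kb to the left the means were 0.217 and 0.123, and in the 1000 kb to the right they were 0.0785 and 0.0555. The YL peaks inside the stretch were also stronger in tags, with a median of 66 (13 to 328) against 34 and 24 in the flanks, and longer, with a median of 1611 bp against 1084 and 887.5 bp. Their median fold enrichment was lower inside (6.08) than in the flanks (6.97 and 8.74). The TL peaks inside had a median of 23 tags, close to the 22 and 21 of the flanks. Since longer peaks hold more tags and reach more windows, the tags are not separate from the counts that set the limits. Per kb of peak, the median was 39.2 tags in YL and 25.4 in TL inside the stretch, 29.5 and 27.0 in the left flank and 27.4 and 27.0 in the right flank.

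In the highland animals, YH had 140 peaks in the stretch and TH 79, with means of 0.381 and 0.137 peaks per window and medians of 46 and 26 tags. In the left flank the medians were 27 tags in YH and 25 in TH. Per kb of peak, the medians inside were 35.4 tags in YH and 26.7 in TH, against 27.7 and 28.1 in the left flank and 28.5 and 25 in the right flank. These counts entered the rule and are no independent view of it. Over 10991 bins of 100 kb with at least 20 windows with a peak, the summed YL count was a median of 1.45 times the TL count and the YH count 1.07 times the TH count. The 6 bins of the stretch had YL to TL ratios from 2.94 to 8.64 and YH to TH ratios from 1.82 to 7.30. The rule was met by 711 bins (6.47%), and the next longest series of them had 3. In the other direction there were 22 such bins (0.20%), none of them adjacent. White Yorkshire pigs are known to carry extra copies of a segment at KIT, the gene of the dominant white coat on pig chromosome 8, and extra copies of a segment raise its tags at equal methylation. Whether KIT lies in this stretch was not tested, since the gene listing used here holds no window of chromosome 8, and neither was the number of copies in these animals. Raised methylation and raised copy number therefore cannot be told apart at these windows.

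**Figure D5:**
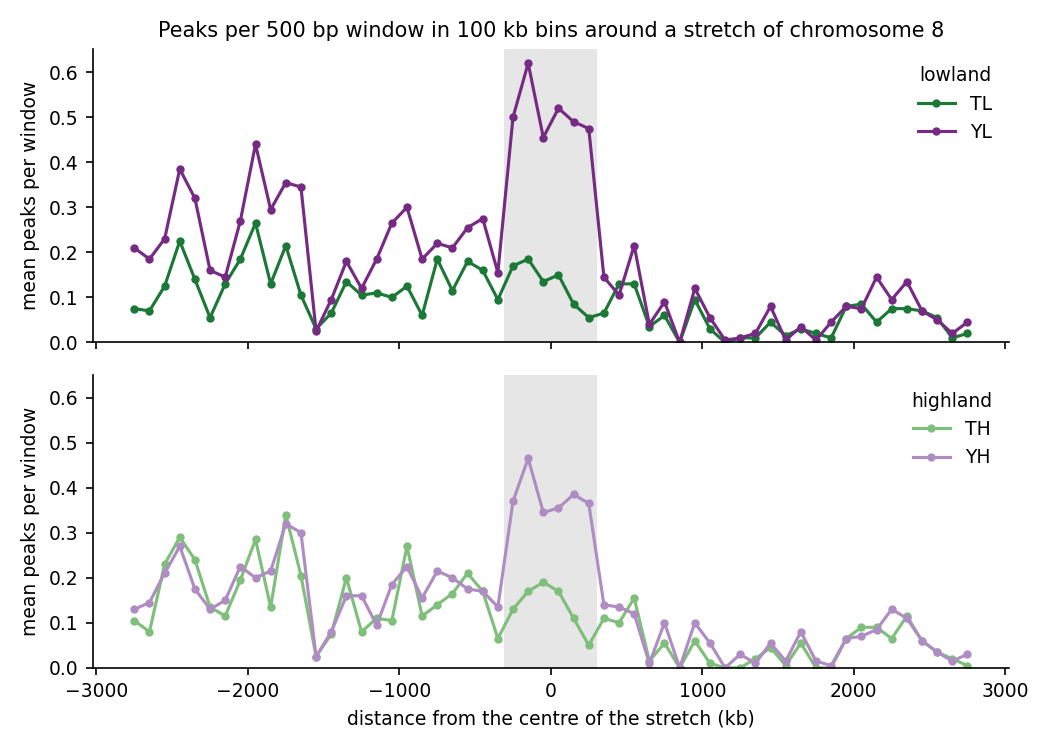
Mean number of peaks per 500 bp window (y axis) in 100 kb bins by distance in kb from the centre of the stretch on chromosome 8 (x axis), for TL and YL (upper panel) and for TH and YH (lower panel). In all 6 bins of the shaded 600 kb YL and YH stand above TL and TH. Outside it many bins show the same order at both elevations by smaller gaps, some of them adjacent, as at -850, -750 and -650 kb. At -1850 kb the means are 0.295 in YL against 0.130 in TL and 0.215 in YH against 0.135 in TH.

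Genes were followed through a list of windows that the study drew from these same animals, of which position, element and gene name were used. The windows used lay on chromosomes 1, 10 and 11, and 42 genes in 4 lists held 108 of them. The genes of 3 lists were chosen by known function and those of the last by their number of listed windows. Because the windows were chosen on these samples, their direction is not independent evidence. In 47 of the 108 windows no TL or YL peak reached the middle, in 45 there were more YL peaks and in 12 more TL peaks. The split of 4 against 0 was met at 3 windows on the YL side, 4.92% of the 61 gene windows with a TL or YL peak, against 0.673% of all windows with a peak, and at 2 on the TL side (3.28%), against 0.0872%. The 2 on the TL side were neighbours under the same 4 TL peaks, at FOXO1. On the YL side, 2 of the 3 were neighbours under the same 4 YL peaks, at CAMK1D, so these windows are not separate loci. More YL peaks were found at 73.8% and more TL peaks at 19.7% of the 61 windows, against 55.4% and 26.5% of all windows with a peak. The gene windows stood apart from all windows in these shares, and they had been chosen for a difference between TL and YL in these samples.

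The heart, vessel, blood and matrix list (14 genes, 24 windows) had more YL peaks at 14 and more TL peaks at 1 of the 16 windows with a TL or YL peak. CAMK1D, a kinase that calcium and calmodulin activate, had both of its list's 4 against 0 windows in an intron (chr10:64960501-64961000 and chr10:64961001-64961500). The 4 YL peaks there had 53, 59, 94 and 98 tags, fold enrichments from 7.16 to 8.91 and lengths from 2040 to 2623 bp, and the only TL peak nearby had 20 tags and lay outside. In the highland, 4 YH peaks of 52 to 92 tags covered the counted base of both windows, with 1 and 2 TH peaks. A further TH peak began past the counted base of the second window, so 3 TH peaks of 26, 36 and 41 tags and 4 YH peaks touched it. Their summits lay together just right of the window, at 64961595 to 64961643 in TH and 64961539 to 64961591 in YH. The YL summits lay there too, at 64961596, 64961605 and 64961621, except for the one at 64960647 inside the first window. A further CAMK1D window (chr10:64959501-64960000) had 0 TL, 3 YL, 0 TH and 3 YH peaks. HTR2A, a serotonin receptor, had the same counts at an intronic window (chr11:20940001-20940500), with 0 TL, 3 YL, 0 TH and 3 YH peaks, although 2 TH peaks touched it. ITGB1, the beta 1 integrin that ties cells to the matrix, had 0 TL and 3 YL peaks in its transcription termination region (chr10:61447501-61448000), but 1 TH and 0 YH peaks, and a TL peak touched it. DAPK2, a kinase linked to cell death, had 1 TL and 4 YL peaks (chr1:118992001-118992500), and 1 peak in each highland group. Of the rest, TNNI1, a troponin subunit, and the promoter of NFATC1, a factor of heart valve development, had 0 TL and 2 YL peaks over the counted base at 1 window each, and ANGPTL2, a secreted angiopoietin-like protein, had 3 of each. The NFATC1 window was touched by 3 TL, 5 YL, 5 TH and 4 YH peaks. PLG, the precursor of plasmin, had the window with more TL peaks over the counted base (1 and 0), but 1 TL, 2 YL, 0 TH and 2 YH peaks touched it, so by touching peaks its order was the other way round.

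In the metabolism list (13 genes, 23 windows), 14 of the 17 windows with a TL or YL peak had more YL peaks, 3 had more TL peaks and none was split 4 against 0. AGPAT4, an acyltransferase of phospholipid synthesis, had 3 intronic windows with a difference of 3 peaks, with 1 TL and 4 YL peaks at chr1:8361001-8361500 and 0 and 3 at chr1:8382001-8382500 and chr1:8383501-8384000. The YL peaks over the latter had 84 to 190 tags, and there were 0 to 1 TH and 1 YH peaks. LIPC, the hepatic lipase, had 1 TL and 4 YL peaks at chr1:125622501-125623000, with 2 TH and 3 YH peaks. EPHX1, an epoxide hydrolase of detoxification, had 0 TL and 3 YL peaks at chr10:16021001-16021500, with 0 TH and 2 YH peaks. BCKDHB, a subunit of the complex that breaks down branched-chain amino acids, had 0 TL and 2 YL peaks at chr1:96710001-96710500. There, 1 TL and 3 YL peaks touched the window, as did 1 peak of each highland group. At chr1:96711001-96711500 it had 1 TL and 3 YL peaks, but 2 TH and 1 YH peaks. PEX3, a peroxisome protein, was among those with more TL peaks (2 and 0), as was the promoter of CRAT, the carnitine acetyltransferase (1 and 0).

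In the growth factor, hormone and developmental list (13 genes, 29 windows), more YL peaks were found at 7 and more TL peaks at 4 of the 12 windows with a TL or YL peak, and both of its 4 against 0 windows were on the TL side. These were neighbours in the promoter of FOXO1 (chr11:15691501-15692000 and chr11:15692001-15692500), a transcription factor of fasting metabolism that insulin signalling restrains. The 4 TL peaks had 18, 33, 36 and 49 tags, fold enrichments from 8.86 to 15.07 and lengths from 890 to 1393 bp. YL had no peak within 3 kb of these windows, nor did YH, while TH had 3 peaks of 15, 17 and 28 tags. Over both elevations, 7 Tibetan peaks and 0 Yorkshire peaks thus lay over the second window and 6 over the first. Of the rest, IGF2R, a receptor that clears insulin-like growth factor, ESR1, the oestrogen receptor alpha, and the promoter of QKI, an RNA-binding protein, had 0 TL and 2 YL peaks at 1 window each, with 0 TH and 0 YH peaks over the counted base, although 2 YH peaks touched the IGF2R window. LEFTY2, a secreted factor of left-right patterning, had 0 TL, 2 YL, 0 TH and 2 YH peaks at chr10:15964501-15965000.

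The last list held SMYD3, a histone lysine methyltransferase, and PARK2, a ubiquitin ligase of mitochondrial quality control, which had the most listed windows (32 together, with 10 towards YL and 4 towards TL among the 16 with a TL or YL peak). SMYD3 had 0 TL and 4 YL peaks at an intronic window (chr10:21131501-21132000), with 48, 60, 62 and 112 tags. A TL peak of 22 tags touched its right side, and in the highland there were 2 TH and 1 YH peaks over the base that was counted. A second YH peak of 78 tags began inside the window, so 2 peaks of each highland group touched it. PARK2 had no window with a difference of 3, with 4 TL and 2 YL peaks at chr1:7428001-7428500 (4 and 3 touching) and 4 of each at chr1:8091001-8091500. Of the 3 genes with a 4 against 0 window, CAMK1D and FOXO1 had the same order of the breeds in the highland as in the lowland over the counted base, and SMYD3 did not. By peaks that touched the windows, there were 3 TH and 4 YH peaks at CAMK1D, 3 and 0 at FOXO1 and 2 and 2 at SMYD3.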

How the data were processed

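MeDIP-seq reads of heart DNA were trimmed (FASTX 0.0.13), aligned to Sscrofa10.2 of Ensembl release 69 (Bowtie 0.12.8) and turned into peaks (MACS 1.4, DiffScore of at least 50) by the authors. They deposited 1 peak list per group. Tags are a deposited count of reads in a peak, not normalized. Fold enrichment is a deposited ratio from the caller. Positions and lengths are in bp. Uniquely mapped reads per animal were those the study tabulates.

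The lists name no animal, so the 0 to 4 peaks over base 250 of a window were read as animals, which the files do not state. Windows with 4 peaks against 0 were tested per window by Fisher's exact test, adjusted by Benjamini-Hochberg over windows with at least 1 peak. Regions are runs of adjacent windows. The counting was tested on simulated data. The peaks compared, the tests and the gene lists were chosen with earlier results of these data known. Genes were named where a window was split 4 against 0, then where peaks differed by at least 3, then by 2 to 4 examples per list. The 5 longest regions and 3 fullest 1 Mb bins per side were named. The list of gene windows was held only in part. Reads were not analysed here. Alternatives were another counting base, a grid moved by 250 bp, at least 20 tags, a fold enrichment of at least 10, at least 0.928 tags per M reads (M, 1000000), equal numbers of peaks, other splits, overlaps, distances and ends, and chromosome X. No annotation or sequence of Sscrofa10.2 was used. Python 3.11.15 was used.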

Additional observations from a re-analysis of the deposited data

Results flagged for a closer look

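Chromosome X, of which males carry a single copy, was outside the comparison and held 84 windows with 4 YL and 0 TL peaks (0.533% of 15746 windows with a peak) and 2 windows with 4 TL and 0 YL peaks. These were noted because they lie in data outside the comparison. The TL list had 3821 peaks on X, against 8911 in YL, 7015 in TH and 7650 in YH, so that the YL list had 2.33 times as many peaks as the TL list on X and 1.27 times as many on the autosomes. The TL list was thus the lowest of the 4 on X. The cause was not tested.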

How the results depend on the processing

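The YL side stayed the larger under every alternative except the cut to equal numbers by fold enrichment, added after seeing the data, which gave 6152 windows, 1705 on the YL side and 4447 on the TL side, and a TL share of 72.3%. By construction this removes YL peaks of low fold enrichment and no TL peak. Cutting by tags, which likewise removes only YL peaks, those of few tags, gave 697 windows on the TL side and a share of 22.1%. At least 1 base anywhere in the window gave 646 windows on the TL side. At least 20 tags gave a share of 9.36%, at least 0.928 tags per M reads 13.3%, and a fold enrichment of at least 10 left 352 windows, of which 101 (28.7%) were on the TL side. Splits of 3 or more against 0 gave 20370 windows, 3256 (16.0%) of them on the TL side, and differences of at least 3 gave 28366, 4464 (15.7%) of them on the TL side. At 3 or more against 0 there were 10705 regions on the YL side (longest 11 windows) and 2214 on the TL side (longest 16).

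The overlap of the TL and YL peaks was 76.3% and 68.3% at 50% of both peaks, 73.2% and 77.1% with equal numbers, 84.9% and 68.1% from 20 tags and 70.9% and 61.1% with overlapping peaks merged. The share of windows without a peak of the other breed was 62.3% (YL side) and 69.3% (TL side) within 1000 bp, and 35.4% and 30.7% within 5000 bp, where the order of the sides turned. Ends of 5% held 13.7% of the YL side and 14.9% of the TL side, and the YL share was 0.861 times that of all windows with a peak, against 0.965 at 10%. The mean YH minus TH difference kept its direction under both alternatives run, but at 3 or more against 0 it was 0.47 peaks on the YL side, against 0.77, and -0.27 on the TL side, against -0.49. With equal numbers of peaks by tags it was 0.80 and -0.38.

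No paired analysis was possible because the lists do not name the animal of a peak, and leaving out single animals was not run for the same reason. Depth differed between the groups, and its part in the counts was not tested: YL had 68.3 M uniquely mapped reads in all and TL 56.0 M (M, 1000000), and an absent peak does not show an unmethylated region. The cause of these changes was not tested.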
